A study of Homo sapiens with 9 samples.

Results

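The aminoacyl-tRNA synthetases are the enzymes that attach each amino acid to its transfer RNA. The genes described here were chosen by symbol from a list of 35, namely 17 cytosolic enzymes, 16 mitochondrial enzymes and 2 genes, GARS1 and KARS1, whose products serve both compartments. Of these, 32 had a probe set annotated to that gene alone, among 19775 genes with such a probe set. They comprised 15 cytosolic and 15 mitochondrial enzymes besides GARS1 and KARS1. MARS1, QARS1 and TARS2 were matched only by probe sets annotated to a further gene, so their levels are not reported. HT-29 cells, a single human colon adenocarcinoma line, had been grown for 5 days with DMSO vehicle alone (0 µM), with 5 µM or with 10 µM 5-aza-deoxycytidine (5-Aza), a cytidine analog that traps DNA methyltransferases and lowers DNA methylation. Each dose had 3 separate cultures, with 1 Affymetrix U133 Plus 2.0 array run on the RNA from each.

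Charging takes place in the cytosol and again in the mitochondrial matrix, where the ribosome reads the few messages encoded by mitochondrial DNA. For most amino acids a separate nuclear gene encodes the enzyme of each compartment, and the symbol ends in 1 for the cytosolic and in 2 for the mitochondrial enzyme. Several cytosolic enzymes are held together in a multi-synthetase complex by the scaffold proteins AIMP1, AIMP2 and EEF1E1. Many cytosolic synthetase genes are known targets of ATF4, the transcription factor of the amino acid response.

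Signals are deposited log2 values, and a gene was tested when its signal reached the median of its array on all 3 arrays of at least 1 dose. This left 11758 genes. All 32 synthetase genes lay above that floor on all 9 arrays, the closest by 0.40 on the log2 scale. Of 12 colon epithelial markers, 10 lay above the floor on every array, CDX1 and CDX2 being the exceptions, while PTPRC, VWF and THY1, markers of blood, endothelial and fibroblast cells, lay below it on all 9. Above it on all arrays of a dose were 2 of 7 fibroblast markers, COL1A1 and LUM, 1 of 4 endothelial markers and 2 or 3 of 5 blood cell markers, LYZ among them. The summed linear signal of the epithelial markers was 97141 to 100815 at 0 µM, 68422 to 76781 at 5 µM and 62373 to 70820 at 10 µM. Of the 10 tested, 5 were lower and CEACAM5 higher at 5 µM (1.67). The summed signal of the fibroblast markers was 291 to 393 at 0 µM, 1048 to 1098 at 5 µM and 635 to 764 at 10 µM, with COL1A1 (2.68) and LUM (1.57) higher at 5 µM. The part of these markers in the results below was not tested. RNA integrity was read from the actin control probe sets as the log2 difference between the 3' and the 5' end, which widens in degraded RNA. The difference was 2.09 ± 0.19 at 0 µM (SD, n = 3), 2.59 ± 0.10 at 5 µM and 2.98 ± 0.17 at 10 µM. It thus grew with dose, without overlap between the doses. The median signal of the arrays was 5.07 to 5.20 at 0 µM, 5.41 to 5.42 at 5 µM and 5.25 to 5.52 at 10 µM. It was thus higher on every treated array than on any vehicle array, and so was the floor. The 18S 5' control stood at 11.77 on 10 µM replicate 1 and at 13.45 and 13.60 on replicates 2 and 3. With 3 arrays per dose, small differences are measured with limited precision.

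The first question was how the synthetase genes differed at 5 µM from the vehicle, and many of them were lower. With limma, 16 of the 32 genes were lower and 1 was higher at an adjusted p of at most 0.05, while 13.3% of all tested genes were lower and 20.2% higher by the same rule. The lower genes were 9 of the 15 cytosolic enzymes, 6 of the 15 mitochondrial enzymes and GARS1, the glycyl enzyme of both compartments. Their changes were small. At 5 µM the 3 arrays lay entirely below those of the vehicle for 22 of the 32 genes, as for 25.4% of all tested genes, and 26 of the 32 had a negative change, as 45.8% of all did. None of the 32 passed the study's rule of more than 2-fold with the same adjusted p, which 8.6% of tested genes passed upwards and 1.32% downwards, although 20 of the 32 had an unadjusted p under 0.05, as 44.6% of all genes did. The median log2 fold change was -0.30 over the 32 genes, -0.30 for the cytosolic and -0.38 for the mitochondrial enzymes, against 0.04 over all tested genes. In these bulk cultures, less RNA per cell and fewer cells with the RNA cannot be told apart.

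**Figure D1:**
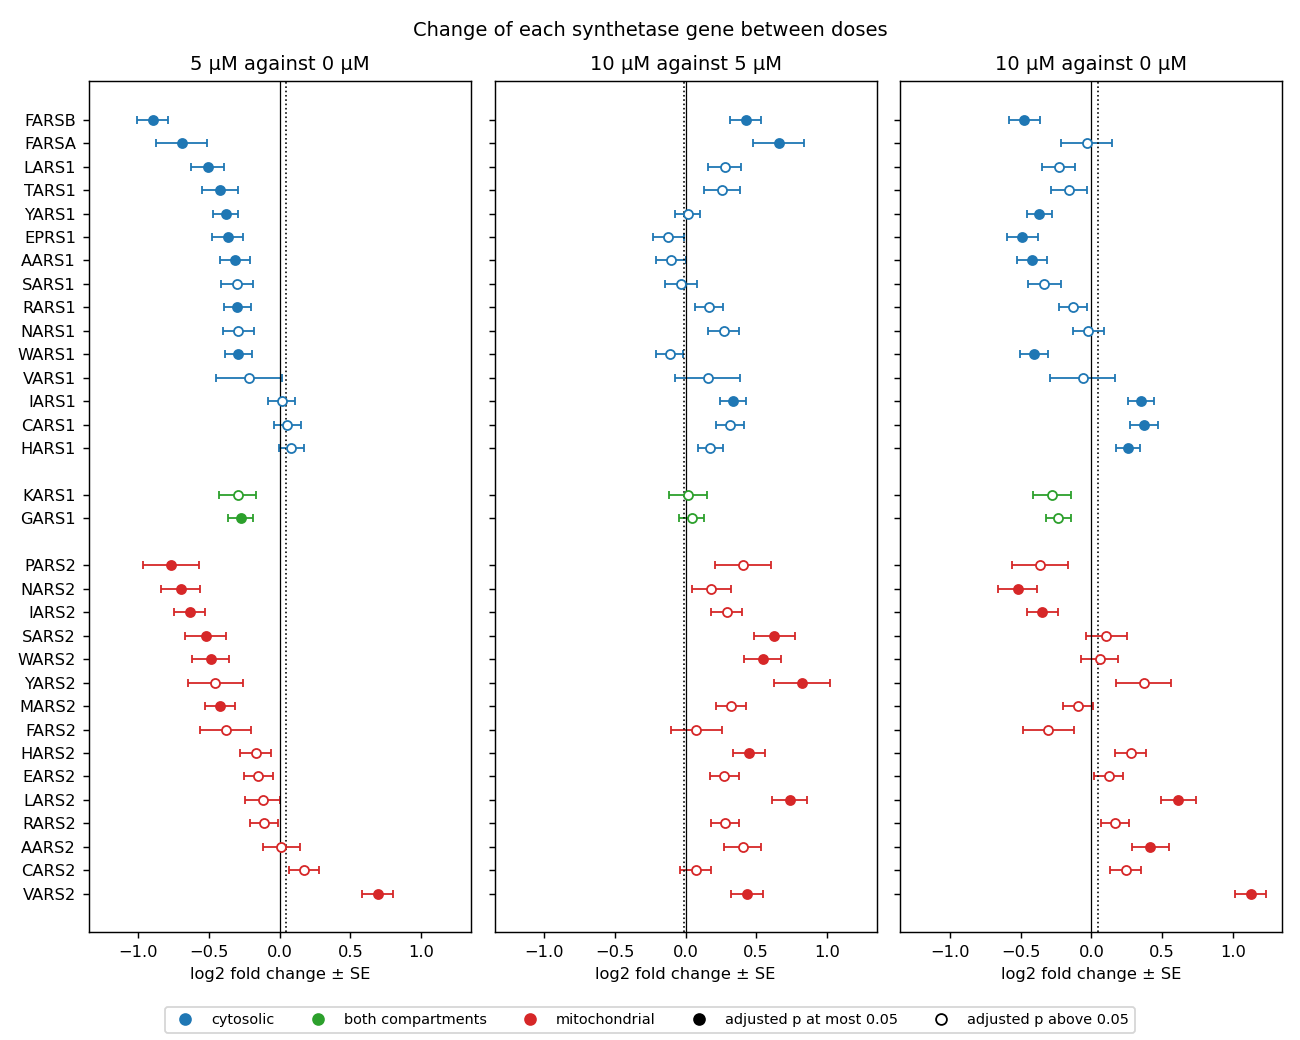
Log2 fold change ± SE (limma, n = 3 arrays per dose) of the 32 synthetase genes in 3 panels, one for each pair of 5-Aza doses, with filled points at an adjusted p of at most 0.05 and a dotted line at the median of all tested genes. At 5 µM 26 of the 32 points lie below 0, and between 5 and 10 µM all 15 mitochondrial points lie above 0.

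FARSB, the beta subunit of the cytosolic phenylalanyl enzyme, had the lowest fold change of the 32 genes at 5 µM. Its log2 signals were 10.26, 10.18 and 10.19 at 0 µM, 9.34, 9.35 and 9.26 at 5 µM and 9.64, 9.96 and 9.62 at 10 µM. The 3 doses did not overlap, with 5 µM the lowest and 10 µM between the others. FARSB was 1.86-fold lower at 5 µM (log2 fold change -0.90 ± 0.11, SE, adjusted p = 0.000519). FARSA, the catalytic alpha subunit of the same enzyme, had signals of 7.78, 7.26 and 7.83 at 0 µM, 6.74, 6.84 and 7.21 at 5 µM and 7.72, 7.48 and 7.57 at 10 µM. All 3 arrays at 5 µM lay below the other 6, and the log2 fold change at 5 µM was -0.69 ± 0.18 (adjusted p = 0.0181).

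LARS1, which charges leucine and also takes part in leucine sensing by mTORC1, had signals of 11.19, 11.10 and 11.30 at 0 µM, 10.77, 10.64 and 10.67 at 5 µM and 10.78, 10.97 and 11.15 at 10 µM. Only the 10 µM arrays overlapped those of the vehicle, and the change at 5 µM was -0.51 ± 0.12 (adjusted p = 0.0102). EPRS1 encodes a bifunctional protein that charges both glutamate and proline. Its signals were 12.17, 12.17 and 12.04 at 0 µM, 11.70, 11.71 and 11.86 at 5 µM and 11.50, 11.81 and 11.60 at 10 µM. All 6 treated arrays lay below the vehicle, and EPRS1 fell at both doses, by 0.37 at 5 µM (SE 0.11, adjusted p = 0.0297) and by 0.49 at 10 µM (adjusted p = 0.0104). The remaining cytosolic genes lower at 5 µM were TARS1 (threonyl, -0.42), YARS1 (tyrosyl, -0.38), AARS1 (alanyl, -0.32), RARS1 (arginyl, -0.30) and WARS1 (tryptophanyl, -0.29), with adjusted p between 0.00948 (YARS1) and 0.0462 (AARS1). Of the genes whose products belong to the multi-synthetase complex and that were measured here, EPRS1, LARS1 and RARS1 were thus lower, while IARS1 and KARS1 did not pass.

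Among the mitochondrial enzymes, PARS2, the prolyl enzyme, had signals of 6.54, 7.10 and 6.70 at 0 µM, 5.80, 5.84 and 6.40 at 5 µM and 6.26, 6.53 and 6.47 at 10 µM. It was lower at 5 µM with no overlap with the vehicle (-0.77 ± 0.20, adjusted p = 0.017), and its 3 arrays at 5 µM spread over more than those at 10 µM. NARS2, the asparaginyl enzyme, had signals of 9.76, 9.80 and 9.62 at 0 µM, 8.79, 9.17 and 9.12 at 5 µM and 9.05, 9.42 and 9.16 at 10 µM. All 6 treated arrays lay below the vehicle (at 5 µM -0.70 ± 0.14, adjusted p = 0.00538). IARS2, the isoleucyl enzyme, was separated from the vehicle in the same way, with 11.13, 11.06 and 10.98 at 0 µM, 10.34, 10.52 and 10.40 at 5 µM and 10.57, 10.89 and 10.68 at 10 µM (at 5 µM -0.64 ± 0.11, adjusted p = 0.00276). In IARS2 the 10 µM arrays also lay above all 5 µM arrays. SARS2 (seryl, -0.52), WARS2 (tryptophanyl, -0.49) and MARS2 (methionyl, -0.42) were lower as well, with adjusted p of 0.0227, 0.0206 and 0.0157.

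VARS2, the mitochondrial valyl enzyme (chr6:30914238-30926459, GRCh38.p14), was the 1 synthetase gene that was higher at 5 µM. Its signals were 8.53, 8.55 and 8.84 at 0 µM, 9.42, 9.24 and 9.34 at 5 µM and 9.73, 9.73 and 9.84 at 10 µM. The doses were fully separated in the order of the dose. The log2 fold change was 0.69 ± 0.11 at 5 µM (1.62-fold, adjusted p = 0.00192), 0.43 ± 0.11 between 5 and 10 µM (adjusted p = 0.0329) and 1.13 ± 0.11 at 10 µM against 0 µM (2.18-fold, adjusted p = 0.00032). It was the only member past the study's 2-fold rule in any of the 3 comparisons. At 10 µM against 0 µM 6.09% of tested genes passed that rule upwards and 1.5% downwards.

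The count of 16 lower genes at 5 µM was 7, 7 and 9 without 0 µM replicate 1, 2 or 3, and 6, 9 and 10 without 5 µM replicate 1, 2 or 3. FARSB, IARS2, LARS1, NARS2 and YARS1 among the lower genes, and VARS2, passed whichever array was left out. With the actin difference as a covariate none of the 17 genes passed, and 731 of all tested genes did, while 3941 passed without it. The medians of the cytosolic and mitochondrial enzymes were then -0.36 and -0.30. Since the actin difference did not overlap between the doses, this fit cannot tell RNA quality from dose. Brighter genes were more often lower, and 15 of the 32 synthetase genes belonged to the 2940 brightest of the tested genes. Of these 2940 genes 21.3% were lower at 5 µM, and of the 15 synthetase genes among them 9 were. The part of RNA quality and of signal level in the result was not tested.

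Between 5 and 10 µM the synthetase genes that differed were higher at the higher dose. At an adjusted p of at most 0.05, 9 of the 32 genes were higher, against 6.93% of all tested genes, and none was lower by limma, against 8.92%. An unadjusted p under 0.05 was reached by 17 of the 32, all with a positive change, and by 32.5% of all genes. No gene was called at more than 2-fold, a rule that 0.264% of tested genes passed upwards and 2.08% downwards. The 5 µM arrays serve both here and in the comparison with 0 µM, so a low 5 µM array adds to the change in each. The arrays at 10 µM lay entirely above those at 5 µM for 19 of the 32 genes, as for 17.3% of all tested genes. All 15 mitochondrial enzymes had a positive change, as 49% of all tested genes did, with a median of 0.41, and 6 passed the test. Of the 15 cytosolic enzymes 11 had a positive change, with a median of 0.18, and 3 passed. The median of all tested genes was -0.01.

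The 6 mitochondrial genes were YARS2, LARS2, SARS2, WARS2, HARS2 and VARS2. YARS2, the tyrosyl enzyme, had signals of 8.87, 8.50 and 8.54 at 0 µM, 7.76, 8.47 and 8.33 at 5 µM and 8.81, 9.09 and 9.13 at 10 µM. The 10 µM arrays lay above all 5 µM arrays (0.82 ± 0.20, adjusted p = 0.0262) but overlapped the vehicle, and 5 µM replicate 1 stood well below its replicates. LARS2, the leucyl enzyme, had signals of 8.15, 7.91 and 7.84 at 0 µM, 7.84, 7.88 and 7.81 at 5 µM and 8.38, 8.72 and 8.64 at 10 µM. It differed at 10 µM alone, with a change of 0.74 ± 0.12 against 5 µM (adjusted p = 0.00787) and 0.61 ± 0.12 against 0 µM (adjusted p = 0.00674), while the 0 and 5 µM arrays overlapped.

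SARS2 had signals of 8.01, 7.98 and 8.22 at 0 µM, 7.39, 7.63 and 7.62 at 5 µM and 8.40, 7.92 and 8.20 at 10 µM. WARS2 had 8.09, 7.96 and 7.81 at 0 µM, 7.34, 7.53 and 7.52 at 5 µM and 7.79, 8.20 and 8.04 at 10 µM. In both genes the 5 µM arrays lay below the other 6, and the 0 and 10 µM arrays overlapped. Their changes between 5 and 10 µM were 0.63 ± 0.14 (adjusted p = 0.0225) for SARS2 and 0.55 ± 0.13 (adjusted p = 0.0271) for WARS2. HARS2, the histidyl enzyme, was higher by 0.45 ± 0.11 (adjusted p = 0.0309). The 3 cytosolic genes were FARSA (0.66 ± 0.18, adjusted p = 0.0409), FARSB (0.42 ± 0.11, adjusted p = 0.0352) and IARS1, the isoleucyl enzyme (0.34 ± 0.10, adjusted p = 0.0451). For both subunits of the cytosolic phenylalanyl enzyme the 5 µM arrays were thus below those of either other dose, and each difference passed the test.

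Of the 9 genes higher at 10 µM than at 5 µM, LARS2, on the probe set used, was the only one that passed whichever array was left out. The count was 1 without 5 µM replicate 1, 5 µM replicate 3 or 10 µM replicate 3 and 2 without 5 µM replicate 2, and none passed by the methods' t-test or in the fit with the actin covariate.

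At 10 µM against the vehicle, 6 of the 32 genes were higher and 7 lower at an adjusted p of at most 0.05, against 19.8% and 13.3% of all tested genes. The share of higher genes was thus close to that of all genes. With all arrays set to the same median, 1 gene was higher and 12 were lower. The lower genes were the cytosolic EPRS1, FARSB, AARS1, WARS1 and YARS1 and the mitochondrial NARS2 and IARS2. All 7 had also been lower at 5 µM, in a comparison that shares the 0 µM arrays, while the other 9 genes lower at 5 µM did not pass at 10 µM. NARS2 fell by 0.52 (adjusted p = 0.0208), FARSB by 0.47 (adjusted p = 0.0125), AARS1 by 0.42 (adjusted p = 0.0166), WARS1 by 0.41 (adjusted p = 0.0134), YARS1 by 0.37 (adjusted p = 0.0125) and IARS2 by 0.35 (adjusted p = 0.0398). The higher genes were the mitochondrial VARS2, LARS2 and AARS2, the alanyl enzyme (0.42 ± 0.13, adjusted p = 0.0395), and the cytosolic CARS1, the cysteinyl enzyme (0.37 ± 0.10, adjusted p = 0.0211), IARS1 (0.35 ± 0.10, adjusted p = 0.0227) and HARS1, the histidyl enzyme (0.26 ± 0.09, adjusted p = 0.049).

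The median log2 fold change at 10 µM was -0.16 for the cytosolic and 0.12 for the mitochondrial enzymes, against 0.05 over all tested genes, and whether the 2 compartments differed was not tested. With all arrays set to the same median, which moved the median of all tested genes to -0.23, the mitochondrial median became -0.15 and the cytosolic one -0.43, so the sign of the mitochondrial median depends on the scaling. Without 0 µM replicate 1, 0 µM replicate 2 or 10 µM replicate 3, 2 genes were higher and 3 lower, and 3 were higher without 0 µM replicate 3. EPRS1 and FARSB among the lower genes and LARS2 and VARS2 among the higher ones passed whichever array was left out, whereas HARS1 lost its call with any array left out and none passed with the actin covariate. CARS2, EARS2, FARS2, KARS1, NARS1, RARS2, SARS1 and VARS1 passed in none of the 3 comparisons on the probe set used, with log2 fold changes between -0.38 (FARS2 at 5 µM) and 0.28 (RARS2 between 5 and 10 µM), which leaves 24 genes that passed in at least 1.

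For several amino acids the enzymes of the 2 compartments can be set side by side, each against its own vehicle level. For valine, VARS1 (chr6:31777518-31795752), the cytosolic enzyme, had signals of 8.96, 8.75 and 9.39 at 0 µM, 9.05, 8.77 and 8.62 at 5 µM and 9.43, 8.80 and 8.69 at 10 µM. Its doses overlapped throughout, unlike those of VARS2 given above. For isoleucine, IARS1 had 13.17 on each of the 3 arrays at 0 µM, 13.19, 13.16 and 13.21 at 5 µM and 13.52, 13.38 and 13.66 at 10 µM. It was thus higher at 10 µM, where the mitochondrial IARS2 was lower than the vehicle.

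For tryptophan, WARS1 had 12.31, 12.22 and 12.11 at 0 µM, 11.86, 11.90 and 11.99 at 5 µM and 11.78, 11.91 and 11.74 at 10 µM. Its 6 treated arrays lay below the vehicle, whereas WARS2, on the probe set used, was low at 5 µM only. For tyrosine, YARS1 had 12.02, 12.04 and 11.93 at 0 µM, 11.53, 11.65 and 11.67 at 5 µM and 11.62, 11.63 and 11.64 at 10 µM. Again all treated arrays of the cytosolic gene lay below the vehicle, while YARS2 at 10 µM reached the vehicle level or above it.

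For asparagine, NARS1 had 12.64, 12.76 and 12.63 at 0 µM, 12.31, 12.43 and 12.40 at 5 µM and 12.45, 12.76 and 12.73 at 10 µM. Its 5 µM arrays did not overlap the vehicle, yet the difference missed the threshold (adjusted p = 0.0667), and the 10 µM arrays spanned the vehicle values. For serine, SARS1 had 12.34, 12.41 and 12.27 at 0 µM, 11.89, 12.04 and 12.18 at 5 µM and between 11.86 and 12.16 at 10 µM. All treated SARS1 arrays lay below the vehicle without passing the test at either dose (adjusted p = 0.0734 at 5 µM and 0.0533 at 10 µM), although its second probe set passed at both. For phenylalanine, the mitochondrial FARS2 had 7.81, 7.91 and 7.58 at 0 µM, 7.01, 7.76 and 7.39 at 5 µM and 7.52, 7.42 and 7.44 at 10 µM, with 5 µM overlapping the vehicle. For glutamate, the mitochondrial EARS2 had 8.68, 8.73 and 8.63 at 0 µM, 8.52, 8.61 and 8.47 at 5 µM and 8.64, 8.93 and 8.85 at 10 µM, and it did not pass in any comparison. The difference between the 2 enzymes of an amino acid was not tested.

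A gene was represented by its brightest probe set, and 17 of the 32 genes had at least 1 further tested probe set, 24 in all. For several genes the probe sets did not move alike. At 10 µM against 0 µM, in a fit over probe sets, the second WARS1 probe set had a larger fall (-0.93 ± 0.12, adjusted p = 0.00145) than the one used (-0.41). The second probe set of YARS1 went the other way, with 0.92 ± 0.22 (adjusted p = 0.0167) against -0.37 for the one used, so the direction of YARS1 at 10 µM depends on the probe set. CARS1 had a probe set at -0.69 ± 0.14 (adjusted p = 0.00854), while the one used was at 0.37 and another at 0.38. For FARSB the second probe set was at 0.57 ± 0.25 (adjusted p = 0.114) against -0.47, and at 5 µM it was at -0.31 ± 0.25 (adjusted p = 0.397). The additional probe sets of EPRS1 (-0.60 and -0.30), AARS2 (0.72) and LARS2 (0.40) had the sign of the one used, and VARS2 had no second tested probe set. Of these, the EPRS1 one at -0.60 (adjusted p = 0.0153) and the AARS2 one (adjusted p = 0.0203) passed. The EPRS1 one at -0.30 (adjusted p = 0.194) and the LARS2 one (adjusted p = 0.0799) did not. KARS1, the lysyl enzyme, did not pass on the probe set used (-0.28), while its second one was at -0.49 ± 0.12 (adjusted p = 0.0173). The second SARS1 probe set was lower at both doses, with changes of -0.47 ± 0.10 at 5 µM and -0.35 ± 0.10 at 10 µM (adjusted p of 0.0111 and 0.0327). Of the 3 additional probe sets of LARS1, 1 was lower at 10 µM (-0.73 ± 0.16, adjusted p = 0.0117), where the one used was at -0.23 and another at 0.02. The second tested WARS2 probe set was at -0.34 ± 0.18 at 5 µM (adjusted p = 0.202), at 0.01 between 5 and 10 µM and at -0.33 at 10 µM against 0 µM (adjusted p = 0.203), so the return of WARS2 to the vehicle level at 10 µM was seen on 1 probe set only. The second LARS2 probe set was at 0.38 ± 0.15 between 5 and 10 µM and did not pass (adjusted p = 0.134). At 5 µM the second probe sets of TARS1 (0.11), YARS1 (-0.05) and FARSA (-0.36) did not pass, whereas that of CARS2 was higher (0.64 ± 0.20, adjusted p = 0.0498) and that of WARS1 lower (-0.41 ± 0.12, adjusted p = 0.0363). The CARS2 one was dim, with a mean of 5.02 at 0 µM, below the median of every vehicle array (5.07 to 5.20). In this fit over 21969 probe sets, the used ones of AARS1, GARS1, RARS1 and WARS1 missed the threshold at 5 µM (adjusted p up to 0.0679). Those of FARSA, FARSB and IARS1 missed it between 5 and 10 µM, and those of AARS2, HARS1 and IARS2 at 10 µM against 0 µM. Which transcripts these probe sets detect was not examined.

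**Figure D2:**
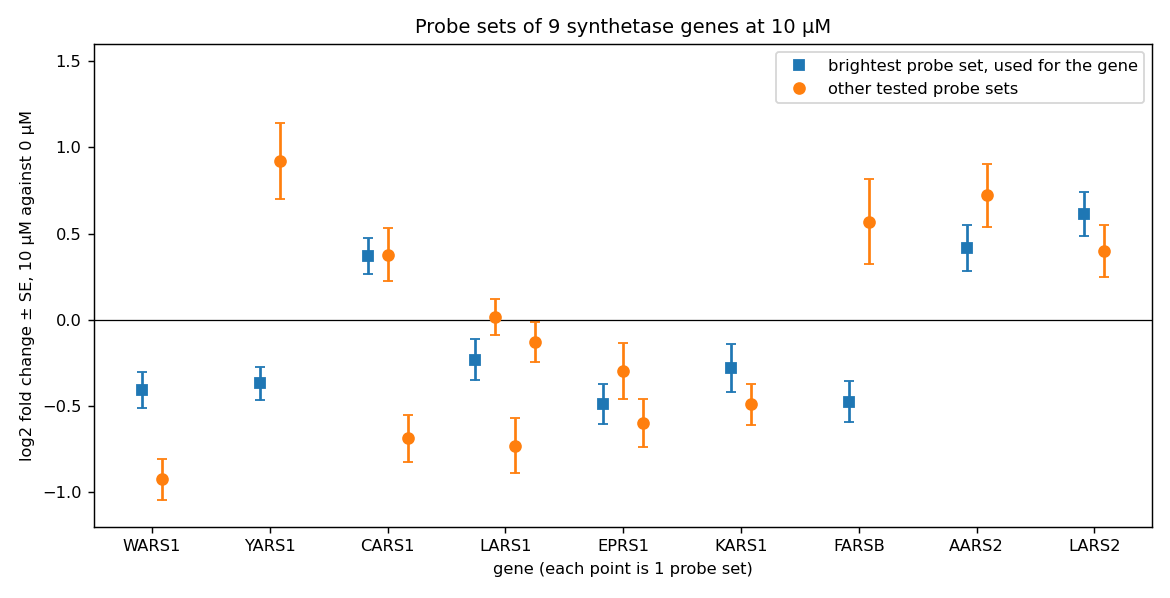
Log2 fold change ± SE at 10 µM against 0 µM for each tested probe set of 9 synthetase genes, with squares for the probe set used for the gene and circles for the others. The probe sets of EPRS1, AARS2 and LARS2 lie on 1 side of 0, while those of YARS1 (-0.37 and 0.92), CARS1 (0.37, 0.38 and -0.69) and FARSB (-0.47 and 0.57) lie on both sides.

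Promoter windows, 250 bases before to 50 after the start site, were taken from RefSeq (GRCh38.p14) and held 30 of the 35 genes. They were searched on both strands for TGATGCAA, the C/EBP-ATF response element that ATF4 binds with a C/EBP partner. The 30 genes had 39 windows. The element was found in 6 of them, of 6 genes that were all cytosolic, and in 0.866% of all windows of that length. The sequences are shown because ATF4 is the best known regulator of these genes, with the element in capitals in the direction of the gene, where TTGCATCA is TGATGCAA on the opposite strand.
AARS1 (chr16:70289676-70289703, minus strand): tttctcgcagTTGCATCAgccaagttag
CARS1 (chr11:3057408-3057435, minus strand): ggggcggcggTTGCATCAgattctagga
IARS1 (chr9:92293693-92293720, minus strand): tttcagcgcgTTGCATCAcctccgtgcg
MARS1 (chr12:57488054-57488081, plus strand): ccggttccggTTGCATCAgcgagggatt
NARS1 (chr18:57621805-57621832, minus strand): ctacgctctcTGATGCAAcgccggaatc
TARS1 (chr5:33440957-33440984, plus strand): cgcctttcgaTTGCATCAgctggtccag

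In CARS1, IARS1 and MARS1 the element began 2, 13 and 4 bases before a start site, and in AARS1 187 bases before it. In NARS1 it lay just past the start site, at base 15 of the transcript. In TARS1 it lay at base 3 from 1 of its start sites, downstream of the one at chr5:33440696. The 5 of these genes with a level did not move alike. AARS1 was lower at both doses, TARS1 was lower at 5 µM only, CARS1 and IARS1 were higher at 10 µM, and NARS1 passed in no comparison. A second form of the element, TGATGNAAT, was in 2 of the 39 windows, against 0.991% of all. These were of GARS1 and, overlapping the first form, of TARS1. The E-box CACGTG, searched as well, was in 5 of the 39 windows, against 7.26% of all, in CARS2, EARS2, IARS1 and MARS2. A match is a run of letters and not a shown binding site, and a gene without one may hold the element outside the window.

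WARS1 is known to be induced by interferon-gamma. A window of WARS1 held a core of the interferon-stimulated response element, beginning 55 bases before a start site. The core was in 3 of the 39 windows, of 2 of the 30 genes, against 3.57% of all windows. It is shown because WARS1 was lower at both doses, while the genes of that response which passed were higher and the others did not pass.
WARS1 (chr14:100375383-100375412, minus strand): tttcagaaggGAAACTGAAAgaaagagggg

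The element is in capitals. A window of WARS1 also held TTCNNNGAA, the gamma-activated site, beginning 142 bases before a start site. That pattern was in 7 of the 39 windows of the synthetase genes, against 7.66% of all windows. Of 8 tested genes of the interferon-gamma response, 3 were higher and none lower at 5 µM (limma, adjusted p at most 0.05, with 5 at an unadjusted p under 0.05), against 20.2% of all tested genes higher. At 10 µM 4 were higher, against 19.8%. They were NLRC5, the transactivator of class I genes (2.84 at 5 µM), the peptide transporter gene TAP1 (1.80), the immunoproteasome gene PSMB9 (1.74) and, at 10 µM, the GTPase gene GBP1 (1.45). NLRC5 lay above the floor on only 2 of the 3 vehicle arrays and was tested because of its treated arrays. IDO1, which breaks down tryptophan, was at -1.05 ± 0.40 at 5 µM (adjusted p = 0.0735) and the signalling inhibitor gene SOCS1 at -1.36 ± 0.62 (adjusted p = 0.123), so neither passed. HARS1 and HARS2 are transcribed away from each other on chromosome 5 from start sites 85 bases apart, and their windows share 184 bases. HARS1 had 10.21, 10.08 and 10.09 at 0 µM, 10.23, 10.14 and 10.26 at 5 µM and 10.37, 10.42 and 10.36 at 10 µM, and HARS2 had 9.67, 9.77 and 9.77 at 0 µM, 9.55, 9.70 and 9.44 at 5 µM and 9.89, 9.96 and 10.19 at 10 µM. In both genes every 10 µM array lay above all other arrays. For 17.3% of all tested genes the 10 µM arrays lay entirely above those at 5 µM, and for 3004 of 11758 above those at 0 µM. The share of genes with both was not computed. HARS1 passed only against 0 µM (limma, 0.26, adjusted p = 0.049), a call lost with any array left out. HARS2 passed only against 5 µM (0.45, adjusted p = 0.0309). The part of the shared window in this was not tested.

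Other genes that act on transfer RNA charging were described as a list. Of 13 tested genes, 7 were lower and none higher at 5 µM, with a median of -0.30 (limma, 7 at an unadjusted p under 0.05). Among all tested genes 13.3% were lower, 20.2% higher and 44.6% at an unadjusted p under 0.05, and these shares also stand against the counts of the translation factors below. They included all 3 tested subunits of the mitochondrial glutamyl-tRNA amidotransferase, QRSL1 (-0.82 ± 0.18), GATB (-0.60 ± 0.12) and GATC (-0.58 ± 0.13), which makes mitochondrial glutaminyl-tRNA, and PSTK (-0.67 ± 0.13), a kinase of selenocysteine synthesis. Between 5 and 10 µM GATB (0.46) and PSTK (0.52) were higher and no gene of the list was lower (4 at an unadjusted p under 0.05), and at 10 µM 3 were lower than the vehicle, as 13.3% of all tested genes were. The scaffold gene AIMP1, the only 1 of the 3 scaffolds tested, had a change of -0.22 at 5 µM that missed the threshold (adjusted p = 0.139). Of 11 mitochondrial translation factors, GFM1, an elongation factor (-0.61), MTRF1L, a release factor (-0.51), and MRRF, the ribosome recycling factor (-0.35), were lower at 5 µM, and MTIF2, an initiation factor (0.44), was higher at 10 µM than at 5 µM, as 6.93% of all tested genes were. Of 5 cytosolic elongation factors, EEF2 (-0.57) and EIF5A (-0.51) were lower at 5 µM and EEF1A2 (1.46), the tissue-restricted form of EEF1A, was higher.

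The amino acid response was read from 26 genes, all tested. At 5 µM 15 were lower and 5 higher, with a median of -0.40, against 13.3% lower and 20.2% higher among all tested genes. At 10 µM 12 were lower and 4 higher than the vehicle, against 13.3% and 19.8%. By an adjusted p of at most 0.05 alone (limma), the share of higher genes was no larger than among all genes at either dose. With more than 2-fold as well, 5 of the 26 were higher and 0 lower at 5 µM, against 8.6% and 1.32% of all tested genes. At 10 µM 2 were higher and 2 lower by that rule, against 6.09% and 1.5%. The genes lower at 5 µM included the serine synthesis genes PSPH (-0.77), PHGDH (-0.58) and PSAT1 (-0.50) and the asparagine synthetase gene ASNS (-0.40). The higher ones at 5 µM were CBS, of transsulfuration (2.90 ± 0.17), the transcription factor genes ATF5 (2.40 ± 0.15) and DDIT3 (1.07 ± 0.13), the secreted glycoprotein gene STC2 (2.28 ± 0.32) and the stress gene NUPR1 (1.23 ± 0.14). CBS and STC2 lay above the floor on 0 of the 3 vehicle arrays and were tested because of their 5 µM arrays. Their place among the 5 higher genes and their fold changes thus rest on vehicle signals under the floor. ATF4 itself had a change of -0.23 (adjusted p = 0.144). MYC, a transcription factor that many genes of translation respond to, fell by 1.19 at 5 µM (adjusted p = 0.000234), was higher by 0.81 at 10 µM than at 5 µM (adjusted p = 0.0065) and at 10 µM was at -0.39 against the vehicle (adjusted p = 0.0447). MYC was thus lowest at 5 µM. FARSA, FARSB, SARS2 and WARS2 were the synthetase genes that passed both as lower at 5 µM and as higher from 5 to 10 µM. Other synthetase genes were lowest at 5 µM without passing both tests. The part of MYC in these changes was not tested. The counts of these lists rest on the deposited scaling and were not repeated under the others.

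**Figure D3:**
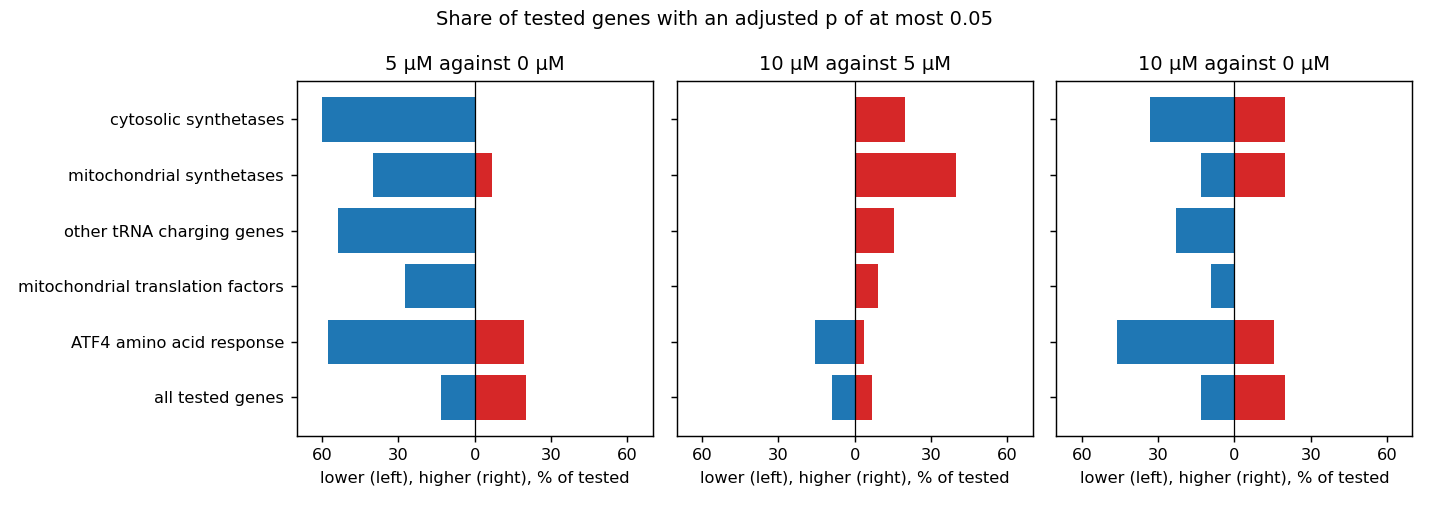
Share of the tested genes of each list that were lower (bars to the left) or higher (bars to the right) at an adjusted p of at most 0.05, in % of tested genes, for each of the 3 comparisons. At 5 µM 9 of 15 cytosolic synthetases, 7 of 13 other charging genes and 15 of 26 amino acid response genes are lower, against 13.3% of all tested genes.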

How the data were processed

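Biotin-labelled RNA of 9 HT-29 cultures was run on 1 array each. Groups came from GEO's titles. The authors deposited log2 signals of 54675 probe sets. The submitters' notes name RMA and affy 1.14.2, but the deposited log2 values have the form of MAS 5.0 signals, with a minimum of -3.32, a 2% trimmed mean of 250.0 on each linear array, and sorted values that differ by up to 1.58 between arrays. Probe sets with a missing value (6) were left out. Of the rest, 41091 were annotated to 1 gene, 1801 to several and 11721 to none, and 62 were controls. Each gene was represented by the probe set with the highest mean over the 9 arrays. Comparisons were two-sided, by moderated tests over all 9 arrays with 1 mean per dose (limma 3.58.1 under R 4.3.3, functions lmFit and eBayes), and Benjamini-Hochberg adjustment over 11758 genes. On simulated data the fit passed 31% to 32% of genes changed 1.5-fold and 82% to 90% of genes changed 2.5-fold, with 7 or 8 false among 11758. The simulation changed 100 genes at each fold, far fewer than passed in the data, so these shares may not carry over. Tables and plots used Python 3.11.15 and matplotlib 3.10.9.

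The synthetase genes, the other gene lists and the alternatives were chosen with earlier results of these data known. Values per array are given for the 12 genes with the largest changes among those past the adjusted p, for the enzymes of the other compartment for the same amino acids, and, chosen after their values were seen, for HARS1 and HARS2. Of other lists, up to 4 genes that passed or had the smallest p were to be named, and those beyond 4 were also chosen after their values were seen. Alternatives were other filters on dim genes, other choices of probe set, fits of 2 groups alone, a replicate block, the methods' t-test, trend and robust eBayes, array weights, other scalings, an actin covariate and leaving out arrays. RNA-Seq of these cultures was not analysed here.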

Additional observations from a re-analysis of the deposited data

How the results depend on the processing

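Of the member changes past the adjusted p, leaving out 1 array kept 216 and lost 135 over all genes and arrays, and the other alternatives kept 385, lost 150 and turned 6. Those 6 were GARS1 at 5 µM after quantile normalization (0.014), and at 10 µM CARS1 with the actin covariate (-0.042), HARS1 with equal array medians (-0.018), FARSB (0.41) and YARS1 (0.28) with the mean of the probe sets, and YARS1 without _x_at and _s_at probe sets (0.92). The cause was not tested. With 1 array left out, the genes lower at 5 µM numbered 6 to 18 (16 with all arrays) and those higher 1 to 1. Those higher at 10 µM than at 5 µM numbered 1 to 11 (9 with all arrays), and at 10 µM against 0 µM those higher 2 to 5 (6 with all arrays) and those lower 3 to 10 (7 with all arrays). The counts past 2-fold were 0 to 0 at 5 µM, 0 to 0 between the doses and 1 to 1 at 10 µM.

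With no filter on dim genes, 5 genes were lower at 5 µM, 1 was higher at 10 µM than at 5 µM, and 2 were higher and 4 lower at 10 µM against 0 µM. The mean of the probe sets left 10 lower at 5 µM. Quantile normalization left 9 lower at 5 µM and 3 lower at 10 µM. With equal array medians 2 genes were past 2-fold at 5 µM, 4 were higher between the doses, and at 10 µM 1 was higher, 12 lower and 0 past 2-fold. The methods' t-test gave 0 higher between the doses, and 2 higher and 3 lower at 10 µM. Array weights gave 20 higher between the doses, and 10 higher and 11 lower at 10 µM. A fit of the 2 groups alone gave 2 higher at 10 µM. Without 10 µM replicates 2 and 3, which leaves 1 array at 10 µM assumed to vary like those at 0 and 5 µM, 1 gene was higher between the doses and 3 at 10 µM. With the actin covariate the counts were 0 lower and 0 higher at 5 µM, 0 higher between the doses, and 0 higher, 0 lower and 0 past 2-fold at 10 µM. In that fit 12 of all genes passed between the doses and 0 at 10 µM. Because the actin difference did not overlap between the doses, this loss does not separate RNA quality from dose.

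Same-numbered arrays of different doses had correlations of deviations between -0.089 and 0.179, and different-numbered ones between -0.248 and 0.225. With 3 arrays per dose this cannot settle whether same-numbered cultures were handled together, and the main fit left the numbers out. With the replicate block 12 genes were lower and 1 higher at 5 µM, 7 were higher between the doses, and 5 were higher and 7 lower at 10 µM. The medians of the cytosolic and mitochondrial enzymes at 5 µM were -0.57 and -0.65 with equal array medians, where all tested genes had -0.22, and -0.21 and -0.54 after quantile normalization. With 3 arrays per dose, a change that missed the threshold is not shown to be absent.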
